A study of Homo sapiens with 8 samples.

Results

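The last listed intron of a gene, the one nearest its 3′ end, was followed in SUM159 cells, an established human triple-negative breast cancer line of mesenchymal character. The cells had received either DMSO alone or H3B-8800, an SF3b-directed splicing modulator, over 12 h. RNA was sequenced as input or after recovery with the antibody J2, which recognises double-stranded RNA; these gave 4 groups of 2 biological replicates each: input with DMSO, input with H3B-8800, J2 with DMSO and J2 with H3B-8800. All 8 libraries were of polyadenylated RNA from 1 cell line, and a recovery with a control antibody was not analysed here. A member had to be the listed intron nearest the 3′ end of a gene with at least 4 listed introns, be at least 100 bases and under 20 kb long and hold at least 20 reads in every library. Of 142224 listed introns in 15902 genes, 10306 met the first conditions and 2658 also met the read minimum, so those described here are the better covered ones. GENCODE 29 on GRCh38 held 2657 of them as introns, and 2355 were the last intron of an annotated transcript; the others were last among the listed introns only.

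Removal of an intron begins when the 5′ splice site and the branch point near the 3′ splice site are recognised, the latter by the U2 particle with its SF3b complex, which binds the branch point adenosine. H3B-8800 occupies the pocket of SF3b that holds this adenosine. The last intron is bounded downstream by the terminal exon, whose definition is coupled to cleavage and polyadenylation, and introns that stay in a polyadenylated RNA can form double-stranded structures that J2 recognises.

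The measure was the intronic share, the reads inside the intron as a percentage of those reads and the reads taken as spliced across it. Libraries held 47000000 to 57000000 reads, of which 1024360 to 1419226 were counted at the last introns, and the median last intron held 117 to 186 reads in a library. The mesenchymal markers fitted the line's description, with 9 of 10 at 1 RPM (reads scaled to library depth) or more and a summed level of 2404 to 4099 RPM across libraries. Luminal markers reached that level for 3 of 10 (summed 167 to 265, with ESR1 and GRHL2 at 0) and immune markers for 1 of 5 listed (summed 5.94 to 9.58, with CD3E and LYZ at 0). The replicate libraries of J2 with H3B-8800 differed by more than those of the other groups, with a chi-square per degree of freedom of 8.32 over the last introns, against 1.69, 2.24 and 1.89 for input with DMSO, input with H3B-8800 and J2 with DMSO.

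Sequence could be read for 286 last introns, those that lie inside an exon of an annotated transcript of the same gene, 162 of them in transcripts annotated as retaining an intron. Of these 286, 284 began with GT and ended with AG. The sequences below are printed so that introns whose share became high with H3B-8800 can be set beside introns that stayed under 1%, and they were chosen after their values were seen. They come from GENCODE 29 transcripts on GRCh38 and are written 5′ to 3′ on the gene's strand. Capitals mark the first 2 and last 2 bases and, in the last 60 bases, each match to CTNAC, a short form of the human branch point consensus with N for any base. The first 4 had the largest rise in input among the whole introns that could be printed and held at least 100 reads in every library: TACC3 (chr4:1744833-1744947, plus strand), IFRD2 (chr3:50288272-50288408, minus), ZNF598 (chr16:1998586-1998701, minus) and RPS6KB2 (chr11:67434695-67434988, plus).
TACC3: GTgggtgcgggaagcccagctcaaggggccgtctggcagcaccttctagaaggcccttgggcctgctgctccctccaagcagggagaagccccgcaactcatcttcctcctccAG
IFRD2: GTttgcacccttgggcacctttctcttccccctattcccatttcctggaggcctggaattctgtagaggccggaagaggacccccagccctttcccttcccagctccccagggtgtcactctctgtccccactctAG
ZNF598: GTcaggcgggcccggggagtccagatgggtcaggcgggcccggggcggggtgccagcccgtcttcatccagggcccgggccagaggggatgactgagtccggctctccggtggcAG
RPS6KB2: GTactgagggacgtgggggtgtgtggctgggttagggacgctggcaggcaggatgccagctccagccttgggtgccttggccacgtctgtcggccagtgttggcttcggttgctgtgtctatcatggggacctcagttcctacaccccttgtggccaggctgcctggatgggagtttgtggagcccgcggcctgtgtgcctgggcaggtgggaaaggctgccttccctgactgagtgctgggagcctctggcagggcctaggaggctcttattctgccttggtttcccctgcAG

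The next 4 last introns were under 1% in all 8 libraries and were the most deeply covered of that kind with a printable sequence: RPSA (chr3:39412062-39412273, plus strand), RPL3 (chr22:39312985-39313190, minus), HDGF (chr1:156743456-156743651, minus) and CAPNS1 (chr19:36149637-36149812, plus).
RPSA: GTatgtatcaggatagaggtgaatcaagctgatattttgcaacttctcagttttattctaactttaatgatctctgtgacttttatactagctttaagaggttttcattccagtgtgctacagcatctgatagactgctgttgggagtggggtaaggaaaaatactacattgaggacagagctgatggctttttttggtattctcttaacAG
RPL3: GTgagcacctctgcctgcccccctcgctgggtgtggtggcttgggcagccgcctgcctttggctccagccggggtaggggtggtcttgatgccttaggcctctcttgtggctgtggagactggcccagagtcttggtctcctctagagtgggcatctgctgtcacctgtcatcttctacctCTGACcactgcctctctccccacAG
HDGF: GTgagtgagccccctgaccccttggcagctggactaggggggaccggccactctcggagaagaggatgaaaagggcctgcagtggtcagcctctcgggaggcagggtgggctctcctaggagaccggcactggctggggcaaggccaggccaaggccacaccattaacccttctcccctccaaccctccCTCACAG
CAPNS1: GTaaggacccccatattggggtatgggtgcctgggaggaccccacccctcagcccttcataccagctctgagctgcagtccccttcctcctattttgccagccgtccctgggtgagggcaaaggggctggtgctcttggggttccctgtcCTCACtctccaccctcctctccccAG

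Among the 4 that rose, TACC3, a spindle protein, showed shares of 8.84% and 5.14% with DMSO and 88.6% and 86.2% with H3B-8800 in input. In IFRD2, an interferon-related developmental regulator, they were 17.8% and 19.6% against 94.1% and 93.9%. The groups did not overlap, and the log2 change of the intronic to spliced ratio was 6.51 ± 0.55 (SE) for TACC3 (adjusted p = 2.60e-30) and 6.08 ± 0.24 for IFRD2 (adjusted p = 1.05e-138) in edgeR's quasi-likelihood test. ZNF598, a ubiquitin ligase that senses collided ribosomes, went from 7.97% and 12.7% to 66.5% and 72.5%. RPS6KB2, a ribosomal protein S6 kinase, went from 1.70% and 0.407% to 45.0% and 38.2%. J2 RNA gave like values, with 87.2% and 85.7% for TACC3 and 92.0% and 91.9% for IFRD2 with H3B-8800. RPSA and RPL3 encode ribosomal proteins, HDGF a growth factor and CAPNS1 the small subunit of calpain. Under 1% is not unchanged, since CAPNS1 was called higher in input (adjusted p = 0.0231), a call lost without input DMSO replicate 1 (0.113), input DMSO replicate 2 (0.130) or input H3B-8800 replicate 2 (0.128). The HDGF intron gave 0.346% and 0.865% with DMSO and 0.509% and 0.841% with H3B-8800 in input, with overlapping groups. In J2 RNA it had 0.302% and 0.0995% against 0.401% and 0.702% and was called higher (log2 change 1.44 ± 0.50, adjusted p = 0.0152), a call lost without J2 DMSO replicate 2 (0.365) or J2 H3B-8800 replicate 2 (0.278). RPL3 was also called higher in J2 RNA, from 0.0147% and 0.0286% to 0.167% and 0.139% (log2 change 2.78 ± 0.68, adjusted p = 0.000251). The base composition did not separate both sets of 4. G and C made up 59.1% to 75% of the introns that rose, and RPL3, HDGF and CAPNS1, at 62.6%, 65.3% and 62.5%, lay in that range, with RPSA at 37.3%. CTNAC was in the last 60 bases of RPL3, HDGF and CAPNS1 and not in those of RPSA or of the 4 that rose. A match describes letters only, and RPSA has none in this window while it was spliced in all libraries.

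With H3B-8800 the intronic share rose in last introns in both kinds of RNA. In input the median share over the 2658 introns was 0.280% and 0.332% in the DMSO libraries and 3.75% and 3.45% in the H3B-8800 libraries, or 0.306% ± 0.0367 against 3.60% ± 0.206 (SD, n = 2). In J2 RNA it was 0.00% and 0.110% with DMSO and 3.60% and 3.33% with H3B-8800, or 0.0552% ± 0.0781 against 3.47% ± 0.187 (SD, n = 2). In neither kind of RNA did drug and vehicle libraries overlap, though 2 libraries against 2 allow no exact permutation p under 0.333. Summed over all last introns, 4.16% of input reads were intronic with DMSO and 12.2% with H3B-8800, and 3.64% and 15.3% in J2 RNA. The change was uneven. On average 27.7% of last introns still had no intronic read in an input library with H3B-8800, against 46.1% with DMSO, while those above a share of 50% went from 3.25% to 11.7% of introns.

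**Figure D1:**
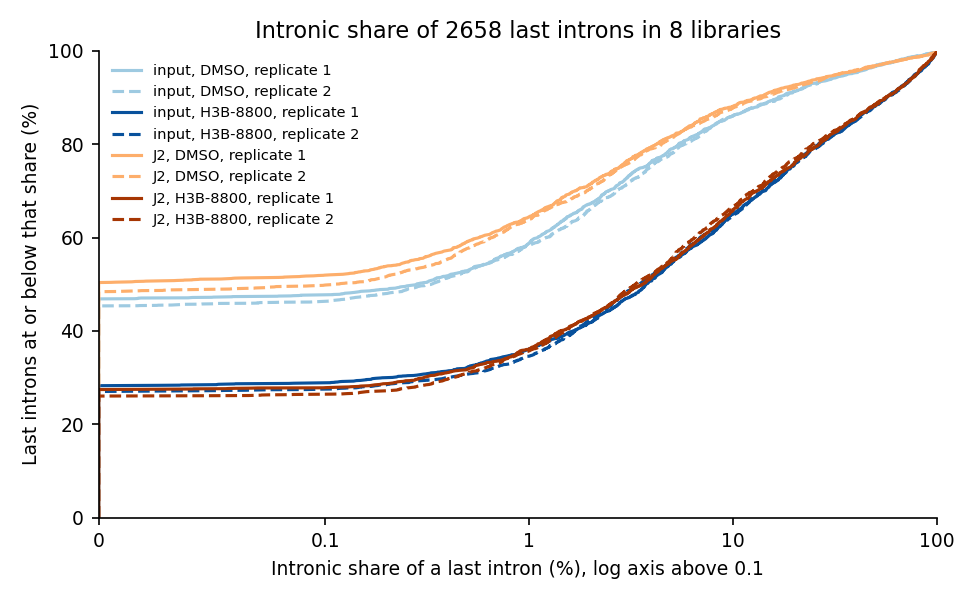
Cumulative distribution of the intronic share over the 2658 last introns, 1 line per library; the x axis is the share in percent, linear up to 0.1 and logarithmic above, and the y axis the percentage of introns at or below it. The 4 libraries with H3B-8800 lie below the 4 DMSO libraries over most of the range, with median shares of 3.33% to 3.75% against 0.00% to 0.332%.

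In edgeR's quasi-likelihood test over all 30262 introns fitted, with Benjamini-Hochberg adjustment, 911 last introns had a higher ratio with H3B-8800 in input (34.3%) and 14 a lower one. Of all introns fitted, 29.6% were called higher and 0.681% lower in that comparison. In J2 RNA 1039 were higher (39.1%) and 14 lower, against 30.8% and 0.833% of all introns. The calls shared 760 introns, which were 83.4% of those called in input and 73.1% of those called in J2 RNA, and 1450 last introns were called in neither. Among introns called higher the median rise of the share was 19.3 percentage points in input and 14.9 in J2 RNA. In 57 last introns of input RNA the share went from at most 5% to over 50%, and in 69 of J2 RNA. At the read minimum, the 237 introns whose lowest library had 20 to 24 reads showed a median of 0.855% with DMSO and 5.01% with H3B-8800 in input, and the 321 just outside, at 15 to 19 reads, 1.04% and 6.11%.

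**Figure D2:**
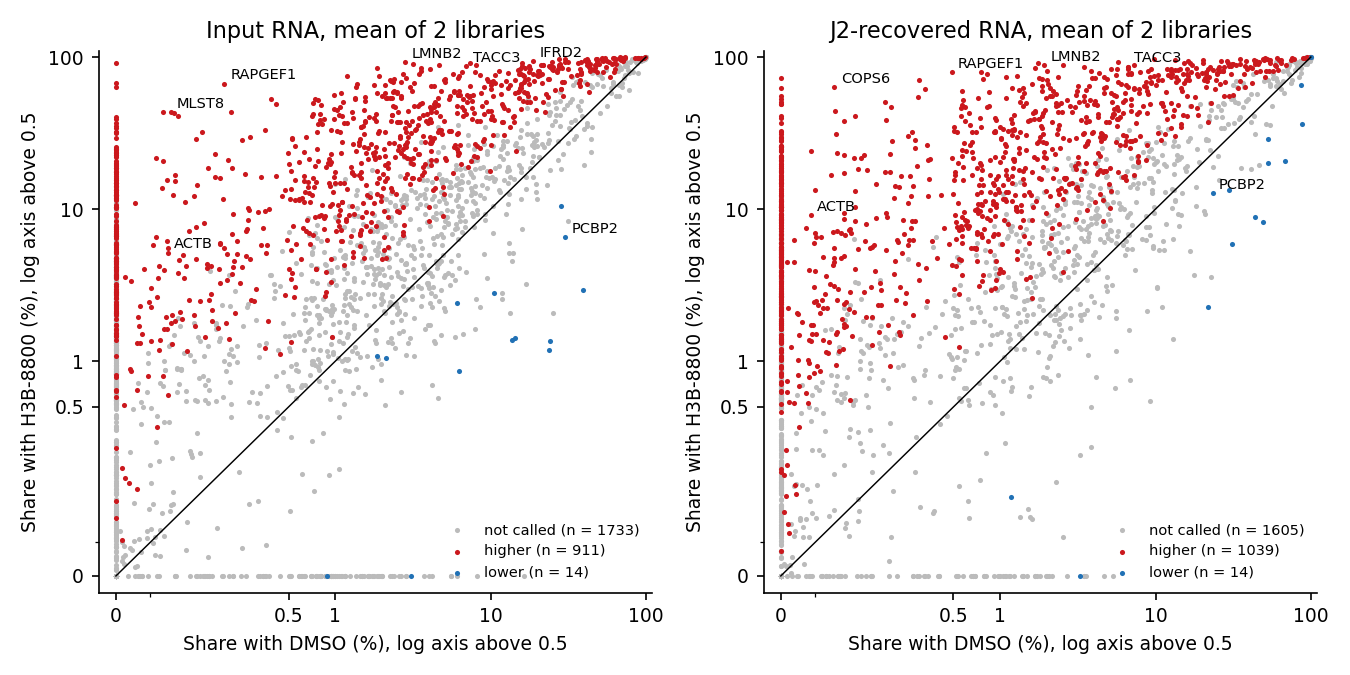
Share of each of the 2658 last introns with DMSO (x axis) against H3B-8800 (y axis), mean of 2 libraries, in percent, linear up to 0.5 and logarithmic above; red and blue points are called higher and lower in edgeR and the line marks equal shares. Most called introns lie above the line, 911 higher against 14 lower in input and 1039 against 14 in J2 RNA.

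The last introns with the largest log2 change of the ratio in input had almost no intronic read with DMSO. This measure favours such introns by its construction, and it does not rank them by the rise in percentage points. In NSMF (chr9:137449492-137449598, 107 bases), which encodes a synapse-to-nucleus signalling factor, the share was 0% and 0% with DMSO and 19.7% and 18.5% with H3B-8800, at least 83.5-fold higher over the summed reads. R3HDM2, an RNA-binding domain protein, went from 0% and 0% to 35.5% and 23.3%, at least 63.9-fold. PSMD3, a subunit of the proteasome's regulatory particle, went from 0% and 0% to 21.1% and 24.4%, at least 60.4-fold. The groups of these introns did not overlap, and their adjusted p lay between 2.53e-24 and 4.06e-15. HARS, the histidyl-tRNA synthetase (chr5:140674329-140674678), rose from 0% in both libraries to 35.8% and 28.4%, at least 37.2-fold, and LETM1, a mitochondrial inner membrane protein, from 0% to 31.2% and 32.2%, at least 32.8-fold. MLLT1, a chromatin reader of the super elongation complex, reached 24.4% and 23.2% from 0%, OPTN, an autophagy receptor, 15.9% and 11.9%, and TNFRSF1A, the main receptor for tumour necrosis factor, 4.5% and 4.62%. RAPGEF1, an exchange factor for the GTPase Rap1 (chr9:131579648-131580262), went from 0.629% and 0% to 67.9% and 66.0%, a ratio of 209.9 with a 95% counting interval of 37.3 to 8324. MLST8, a subunit of mTOR complexes (chr16:2208614-2208758), went from 0.316% and 0% to 38.7% and 48.4%, a ratio of 294 (52.3 to 11673). All 10 had a higher share with H3B-8800 in both input libraries, and their calls held without any 1 library.

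In J2 RNA the largest changes were partly in other genes. COPS6, a subunit of the COP9 signalosome (chr7:100091521-100091648, 128 bases), went from 0.168% and 0.142% to 58.9% and 68.4%, a ratio of 413 with a 95% counting interval of 114 to 3417, and had 40.4% and 45.3% in input with H3B-8800. STK16, a Golgi-associated kinase, went from 0% to 20.9% and 27.9% (at least 82.4-fold), CDC123, an assembly factor of the initiation factor eIF2, from 0% to 27.0% and 32.8% (at least 55.3-fold), and ST3GAL2, a sialyltransferase, from 0% to 26.6% and 24.7% (at least 46.8-fold). C16orf62, a subunit of the endosomal retriever complex, had 7.55% and 27.5% with H3B-8800 against 0% in both DMSO libraries. HNRNPL, a splicing regulator, went from 0% to 12.3% and 10.1%. HARS, RAPGEF1 and MLLT1 were among the 10 largest in both kinds of RNA. Adjusted p for the introns named here lay between 1.58e-54 and 1.78e-12.

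Few last introns fell with H3B-8800. The clearest was that of PCBP2, a poly(C)-binding protein (chr12:53471808-53479405, 7598 bases), whose share was 31.1% and 29% with DMSO and 6.71% and 6.44% with H3B-8800 in input. The groups lay far apart, with a log2 change of -2.61 ± 0.36 (adjusted p = 5.77e-12). In J2 RNA it went from 21.5% and 25.2% to 11.1% and 14.3%, a log2 change of -1.06 ± 0.35 (adjusted p = 0.00896), and the J2 call was lost without J2 DMSO replicate 2 (adjusted p = 0.0821). PCBP2 and CCNJL, the latter named after its values were seen, were the 2 last introns called lower in both kinds of RNA. RHOA, a small GTPase of the cytoskeleton, fell in input from 6.67% and 5.41% to 2.23% and 2.56% (log2 change -1.38 ± 0.38, adjusted p = 0.00169). CBFB, the partner of the RUNX factors, fell in input from 2.69% and 3.48% to 0% in both libraries, at least 10-fold lower. That intron is number 4 of 5 in its annotated transcript, so it was last among the listed introns only. HNRNPDL, a splicing regulator, fell in J2 RNA from 28.0% and 31.7% to 14.7% and 12.0% (log2 change -1.47 ± 0.40, adjusted p = 0.00120 in edgeR's quasi-likelihood test). In input it had 33.0% and 36.0% against 26.4% and 31.3%. Annotated exons of the same gene overlap the introns of PCBP2, CCNJL and CBFB, and an exon of the same gene covers that of HNRNPDL. Reads from such exons were not told apart from intronic reads.

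Some other calls in that direction were lost without single libraries. Among these introns, an exon of the same gene covers that of KDM1A, and exons of the same gene overlap that of EIF2S3. In input, leaving out 1 library ended the call of KLF4, a transcription factor (1.06% and 0.705% against 0% and 0%), with an adjusted p of 0.106, 0.149 and 0.155 without DMSO replicate 1, H3B-8800 replicate 1 and H3B-8800 replicate 2. It likewise ended that of KDM1A, a histone demethylase (0.0774, 0.178 and 0.0610 without the same libraries), and of SLC7A5, an amino acid transporter (0.0844, 0.154 and 0.647 without DMSO replicate 1, DMSO replicate 2 and H3B-8800 replicate 1). In J2 RNA it ended that of IL20RB, a cytokine receptor chain (0.220 without DMSO replicate 1 and 0.352 without H3B-8800 replicate 1), and of EIF2S3, a subunit of eIF2 (0.198 without DMSO replicate 2 and 0.178 without H3B-8800 replicate 2). The 14 calls in input became 7, 9, 7 and 5 without DMSO replicates 1 and 2 and H3B-8800 replicates 1 and 2. The 14 in J2 RNA became 8 without DMSO replicate 2 and 6 without H3B-8800 replicate 2.

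The higher shares were accompanied by more intronic reads, and often by fewer spliced reads. Scaled by library depth, 839 last introns had more intronic reads with H3B-8800 in input and 51 fewer, while 587 had more spliced reads and 1233 fewer. Of all introns fitted, 26.5% and 1.55% were called for intronic reads and 20.6% and 48.1% for spliced reads. In J2 RNA 1008 had more and 38 fewer intronic reads, against 30.1% and 1.5% of all introns, and 629 more and 1254 fewer spliced reads, against 23.7% and 45.7%. Of the 911 with a higher share in input, 754 had more intronic reads, 581 fewer spliced reads and 432 both, and 119 had more spliced reads. The corresponding counts among the 1039 in J2 RNA were 857, 648, 473 and 151. In those 911 the median log2 change was 3.48 for intronic and -0.72 for spliced reads.

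These counts per kind of read depended on scaling, since intronic reads rose over the listed introns as a whole. On library depth the median log2 change of intronic reads over all introns was 1.27 in input and 1.58 in J2 RNA, and TMM scaling moved it by -1.22 and -1.42. With TMM, 491 last introns had more and 171 fewer intronic reads in input, and 559 and 176 in J2 RNA, so that the part of calls that were higher went from 94.3% to 74.2% and from 96.4% to 76.1%. With median-of-ratios scaling these parts were 71.6% and 72.2%. For spliced reads the part that were higher went from 32.3% to 51.8% (TMM) and 53.1% (median of ratios) in input and from 33.4% to 44.3% and 48.5% in J2 RNA, with median shifts of 0.36 and 0.39, and 0.23 and 0.32. The share itself compares both kinds of read within a library and does not depend on this scaling.

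Gene lists were described by counts beside the 34.3% of last introns called higher in input and 39.1% in J2 RNA, and beside the median over all of them, which went from 0.641% to 3.70% in input. The lists differed in depth, and deeper introns were called more often. Among the genes of the splicing machinery, 0 of 4 last introns of SF3b genes were called, with medians of 0.156% with DMSO and 0.00% with H3B-8800. Of 23 in other spliceosome genes 2 were higher in input and 5 in J2 RNA, with medians of 0.358% and 0.306% in input. SNRNP70, which encodes the U1-70K protein, rose from 9.31% and 10.6% to 16.9% and 18.5% in input and from 10% and 5.49% to 22.4% and 22.4% in J2 RNA. Its input call had an adjusted p of 0.0393 and was lost without any 1 of the 4 input libraries (0.0863 to 0.212) and with a replicate block (0.0539). SNRPA1, the U2 particle's A′ protein, had 0.535% and 0.554% against 1.10% and 1.88% in input, which did not pass the test (adjusted p = 0.356).

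Of 29 last introns in SR and hnRNP regulators 11 were higher in input and 11 in J2 RNA, with 1 lower in J2 RNA and medians of 0.187% and 1.42% in input. HNRNPUL2 rose from 0.830% and 0.772% to 37.3% and 39.2%, 48.0-fold with a 95% counting interval of 18.3 to 179. ELAVL1, which stabilises AU-rich messages, rose from 0.840% and 3.50% to 19.4% and 20.7%, and TARDBP, which encodes the RNA-binding protein TDP-43, from 71.2% and 68.6% to 98.7% and 99.3%. The last intron of TARDBP was thus mostly unspliced in these counts with DMSO too.

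Translation genes lay on both sides of the level of all last introns, without matching for depth. Of 37 introns in cytosolic ribosomal protein genes 12 were higher in input (32.4%) and 18 in J2 RNA (48.6%), at low shares (medians 0.0613% and 0.274% in input). Their median lowest total was 1579 reads, against 78.0 over all last introns. Of last introns with at least 500 reads in the lowest library, more were called higher, 53.5% in input and 62.4% in J2 RNA. RPS19 rose from 0.181% and 0.108% to 1.95% and 1.95%, with non-overlapping groups and a ratio of 13.7. FAU, whose product is a ribosomal protein fused to a ubiquitin-like protein, rose from 0.119% and 0.136% to 1.46% and 1.28%. Of 15 in mitochondrial ribosomal proteins 6 were higher in input and 2 in J2 RNA, with 1 lower. MRPS7 rose from 4.01% and 2.05% to 21.9% and 20.8% and MRPL38 from 0.858% and 0.511% to 13.3% and 8.88%. Of 22 in initiation factors 5 were higher in input and 7 in J2 RNA, with 1 lower in J2 RNA. Their medians were 0.649% and 3.48% in input and 0.0115% and 0.562% in J2 RNA. EIF2D, a tRNA-delivering initiation factor, had 1.14% and 1.20% against 12.4% and 4.84% in input, and its call was lost without H3B-8800 replicate 1 (adjusted p = 0.163). Of 11 in aminoacyl-tRNA synthetases 4 and 6 were higher. WARS, for tryptophan, rose from 0.176% and 0.167% to 16.8% and 13.9%, 89.4-fold (34.1 to 333), and AARS, for alanine, from 0% and 0.111% to 12.7% and 9.38%.

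Genes of RNA and protein breakdown followed. Of 19 proteasome introns 6 were higher in input and 8 in J2 RNA, with 1 lower, and the input median went from 0.00% to 3.45%. PSMD8 rose from 4.21% and 3.0% to 18.2% and 15.3%. PSMA7 rose in input from 0% and 0% to 8.5% and 5.39% (at least 11.8-fold), while in J2 RNA it had 1.02% and 0% against 1.39% and 1.86%, which did not pass the test (adjusted p = 0.279). Of 12 introns in nonsense-mediated decay and exosome genes 6 and 7 were higher, with input medians of 0.00% and 3.84%. SMG5, a decay factor that recognises phosphorylated UPF1, rose from 0% and 0% to 3.87% and 3.96% in input, at least 7.17-fold.

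Of 25 last introns in lamin, keratin, actin and tubulin genes, 15 were higher in input (60%) and 13 in J2 RNA (52.0%), with medians of 0.202% and 2.06% in input. LMNB2, a nuclear lamin (chr19:2430953-2431547), went from 3.17% and 2.48% to 93.1% and 91.5%, and in J2 RNA from 1.38% and 2.48% to 88.7% and 89.0%. Both kinds of RNA gave groups far apart, with log2 changes of 8.68 ± 0.43 (adjusted p = 1.88e-87) and 8.62 ± 0.45 (adjusted p = 8.40e-81). ACTB, cytoplasmic beta-actin (chr7:5527892-5528003), rose from 0.168% and 0.133% to 5.49% and 4.87% in input and from 0.0817% and 0.0929% to 8.60% and 9.63% in J2 RNA. KRT18, an epithelial keratin, rose from 0.812% and 0.152% to 12.1% and 12.3%.

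Of 11 last introns in genes of double-stranded RNA sensing and handling 5 were higher in input and 4 in J2 RNA, with input medians of 0.769% and 6.67%. Of 5 in interferon-stimulated genes 4 and 3 were higher. LGALS3BP, a secreted galectin ligand, rose from 19.6% and 18.9% to 53.6% and 53.4%, and IRF1, an interferon regulatory factor, from 0.539% and 0.225% to 5.60% and 11.4%. Of 9 in the NF-kB pathway 3 and 3 were higher. NFKBIB, an inhibitor of NF-kB, was at 92.9% and 93.0% with DMSO already and at 98.6% and 98.7% with H3B-8800, and exons of the same gene's other transcripts cover that intron.

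Of 14 last introns in ATF4 and unfolded protein response genes 4 were higher and 1 lower in each kind of RNA. PHGDH, of serine synthesis, rose from 0.252% and 0% to 4.27% and 4.14%, and PDIA4, a disulfide isomerase of the endoplasmic reticulum, from 0% and 0% to 1.19% and 1.73%, at least 10.7-fold. Of 6 in the apoptosis list 3 were higher in each kind of RNA, with input medians of 0.376% and 2.02%.

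Of 15 last introns in mitotic genes 3 were higher in input and 5 in J2 RNA. FOXM1, a transcription factor of the G2 and M phases, rose from 0.644% and 0% to 4.58% and 5.51%. Of 13 in replication and repair genes 2 and 2 were higher, of 7 in respiratory complex I 0 and 3, and of 13 in glycolysis genes 1 and 2. GAPDH was the 1 glycolysis gene called in input, from 0.0158% and 0.0183% to 0.290% and 0.351%. TPI1, another glycolytic enzyme, had 0.0552% and 0.0513% against 0.118% and 0.0917%, which did not pass the test (adjusted p = 0.535).

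Some last introns stayed spliced in nearly all molecules. Of the 2658, 487 had a share of at most 1% in all 8 libraries. The most deeply covered were those of GAPDH, RPL13A, RPLP0, RPL8 and RPSA, with at least 9080 reads in every library. Their highest share in any library was 0.351% for GAPDH and 0.419% for RPL13A, and 0.073% for RPLP0. In RPL8 it was 0.190% and in RPSA 0.0418%. A share this low can still have risen, since GAPDH was called higher in both kinds of RNA, with ratios of 18.8 and 31.7.

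The part of last introns called higher was lowest among the longest introns. In input it was 37.7% of 366 introns under 200 bases, 36.7% of the 512 in the next class, up to 500 bases, and 34.5%, 35.8%, 30.5% and 26.8% in the classes up to 1000, 2000 and 5000 bases and the longest class. In J2 RNA it went from 45.4% in the shortest class to 21.5% in the longest. The median share ran the other way, from 0.0579% to 4.76% with DMSO and from 1.46% to 10.8% with H3B-8800 in input. The share was not divided by intron length, and the median length was 139.5 bases in the shortest class and 7642 in the longest. A longer intron has more bases that can hold intronic reads, and the part of this in the trend was not tested. First introns of the same length classes went from 44.0% to 16.2% in input and internal introns from 31.0% to 25%.

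**Figure D3:**
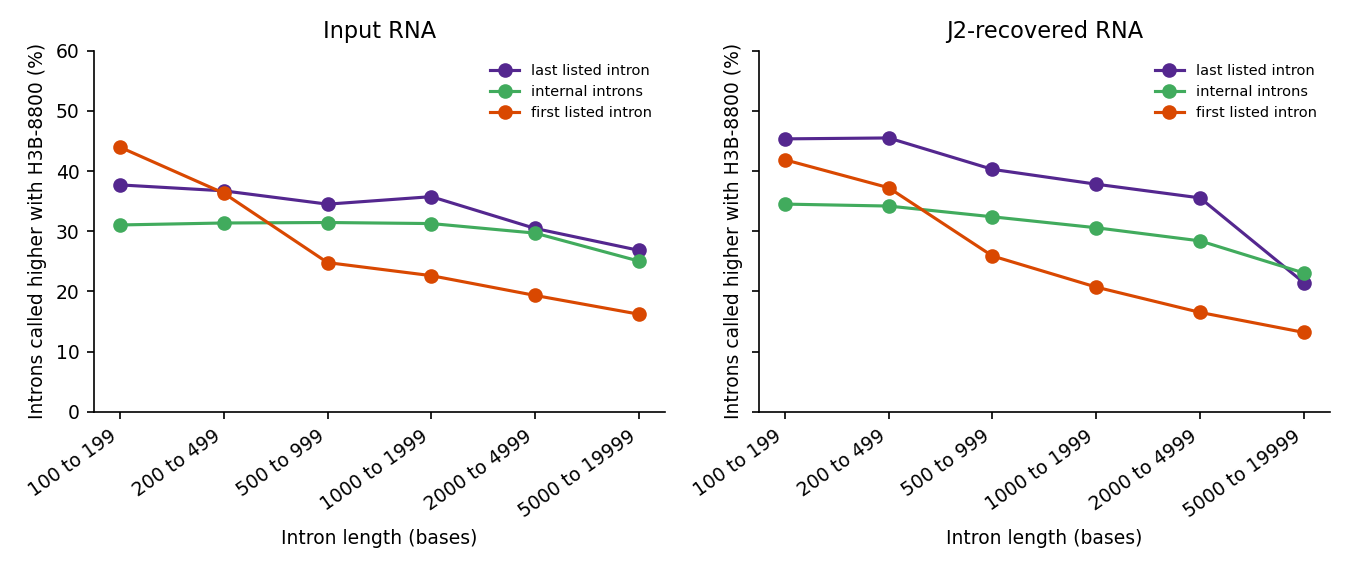
Percentage of introns called higher with H3B-8800 by intron length in bases, for last, internal and first listed introns, in input (left) and J2 RNA (right); each point is 1 length class. Last introns fall from 37.7% to 26.8% in input and from 45.4% to 21.5% in J2 RNA, and first introns from 44.0% to 16.2% in input.

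The part called higher was larger at greater depth. In input 21.3% of last introns whose lowest library held 20 to 49 reads were called higher, 32.9% at 50 to 99, 42.5% at 100 to under 500 and 53.5% at 500 or more. The 286 last introns inside an exon of the same gene were called higher in 51.4% (input) and 58.7% (J2 RNA), and the other 2372 in 32.2% and 36.7%. Their median shares in input went from 1.77% to 12.8% and from 0.546% to 3.24%, and their median lowest totals were 112.5 and 76.0 reads, and the part of depth in this difference was not tested. In these 286 the called introns held more G and C, with a median of 58.7% against 51.5%. In 4 classes of equal size by base composition, from 27.0% to 76.3% G and C, the part called higher in input was 19.4%, 59.2%, 63.4% and 63.9%, and the median share with H3B-8800 was 1.47%, 13.3%, 15.6% and 23.9%. The classes also differed in length (medians 563, 563, 282 and 208 bases) and depth (median lowest totals 97, 95, 124 and 131), and their part was not tested. Across the 209 introns with at least 50 reads in every library, the Spearman correlation of G and C content with the rise of the share was 0.443 in input and 0.444 in J2 RNA, over introns that share libraries. CTNAC stood in the last 60 bases of 35% of the 286, in 25.2% of those called higher in input and 45.3% of the others. Its reverse complement, GTNAG, stood in 10.8%, with 11.6% and 10.1%. The called introns were the deeper ones, with a median lowest total of 150 against 72.

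To see whether position within the gene mattered, the last intron was set against the internal introns of the same gene in 1 model, pooled over a median of 4 introns. Of 2475 genes, 205 (8.28% of all genes tested) had a larger change with H3B-8800 at the last intron in input and 135 (5.45%) a smaller one. In J2 RNA 243 (9.82%) were larger and 193 (7.8%) smaller. Summed over these genes the share at last introns went from 3.92% and 4.03% to 11.7% and 11.6% in input, and at internal introns from 2.46% and 2.41% to 8.72% and 8.67%. In J2 RNA last introns went from 3.45% and 3.54% to 15% and 14.8% and internal introns from 2.39% and 2.45% to 11.3% and 11%. Summed reads weigh the most-read genes, and medians over genes, with internal introns pooled per gene, went the other way. With H3B-8800 the median share was 3.57% and 3.17% at last introns and 6.25% and 6.25% at internal introns in input. In J2 RNA these were 3.28% and 3.03% against 4.86% and 4.93%. The internal value pools several introns of a gene, and the part of pooling in this order was not tested. Taken intron by intron, the mean of the library medians with H3B-8800 was 3.60% over all 2658 last introns in input. Over 18452 internal introns it was 2.27%. In J2 RNA these values were 3.47% and 1.53%. The median log2 difference of the changes was 0.0631 in input and -0.112 in J2 RNA. Last introns were a little shorter, with a median of 902 bases against 1103.5. Against the 1 internal intron nearest in length the counts were 62 and 61 in input and 63 and 60 in J2 RNA, nearly equal in both directions. A further run kept only genes whose median internal length was within 2 times that of the last intron. All their internal introns were still pooled, and the counts were 91 and 66 in input and 99 and 86 in J2 RNA. The counts also fell by more than 1.5 times without single libraries. In input they were 120 and 82 without DMSO replicate 1, 124 and 86 without DMSO replicate 2, and 83 smaller ones without H3B-8800 replicate 2. In J2 RNA they were 143 and 119 without DMSO replicate 1 and 147 and 110 without DMSO replicate 2.

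Single genes differed strongly by position in both directions. In RAPGEF1 the last intron went from 0.99% and 0% to 79.3% and 80.7% in J2 RNA, while its internal introns went from 32.0% and 30.6% to 58.5% and 54.2%. The log2 difference of the changes was 8.13 ± 0.59 (adjusted p = 7.40e-23). ZDHHC8, a palmitoyltransferase, had 0% and 2.74% against 65.3% and 67.0% at its last intron in input and 15.2% and 15.1% against 14.5% and 17.8% at internal ones, a log2 difference of 7.07 ± 0.75 (adjusted p = 1.23e-13). In NSMF internal introns went from 1.12% and 0.762% to 6.55% and 4.08%, less than the last intron (log2 difference 7.72 ± 1.26, adjusted p = 6.14e-07). NXN, a thioredoxin-like oxidoreductase, showed the reverse in J2 RNA. Its last intron had 5.54% and 8.63% with DMSO and 6.06% and 4.95% with H3B-8800, with overlapping groups, and its internal introns went from 0.0724% and 0.0706% to 7.93% and 10.4% (log2 difference -7.34 ± 0.76, adjusted p = 2.09e-14). Against the internal intron nearest in length, NSMF, RAPGEF1 and NXN no longer passed, with an adjusted p of 1, 1 and 0.782, and ZDHHC8 did.

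Against first introns of the same gene, most differences were larger changes at the last intron. Of 1819 genes, 164 (9.02% of all genes tested) had a larger change at the last intron in input and 40 (2.2%) a smaller one, and in J2 RNA 222 (12.2%) and 42 (2.31%). The summed share at last introns went from 3.65% and 3.63% to 11.3% and 11.1% in input and from 2.95% and 3.01% to 14.1% and 14.1% in J2 RNA. First introns went from 3.91% and 3.87% to 8.71% and 8.59%, and from 3.39% and 3.47% to 10% and 10.2%. The first introns were longer, with a median of 2254 bases against 872. In the 516 genes whose first and last introns differed in length by at most 2 times, 33 changes were larger and 10 smaller in input and 43 and 12 in J2 RNA. Without DMSO replicate 2 the input counts were 106 and 20. In J2 RNA 133 were larger without DMSO replicate 1, and 142 were larger and 26 smaller without DMSO replicate 2.

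RANGAP1, the activator of the GTPase Ran, had 0.804% and 0.529% against 13.9% and 14.0% at its last intron in input and 2.25% and 2.15% against 0% and 0% at its first (log2 difference 10.90 ± 1.53, adjusted p = 1.04e-10). NOC2L, a nucleolar protein, was of the opposite kind. In J2 RNA its last intron had 5.57% and 4.18% against 6.49% and 7.23% and its first 1.82% and 0% against 54.4% and 50.9% (log2 difference -6.28 ± 1.14, adjusted p = 1.24e-06). EIF4G1, the scaffold of the cap-binding complex, had 7.77% and 6.74% against 16.1% and 17.5% at its last intron in J2 RNA and 0% and 0.595% against 25.4% and 24% at its first. In genes with at least 8 listed introns the part called higher in input was 34.1%, 30.7%, 34.5%, 29.5%, 32.3% and 31.8% from the last intron to the sixth from the 3′ end. At the first intron it was 21.8% and at the second 23.0%.

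**Figure D4:**
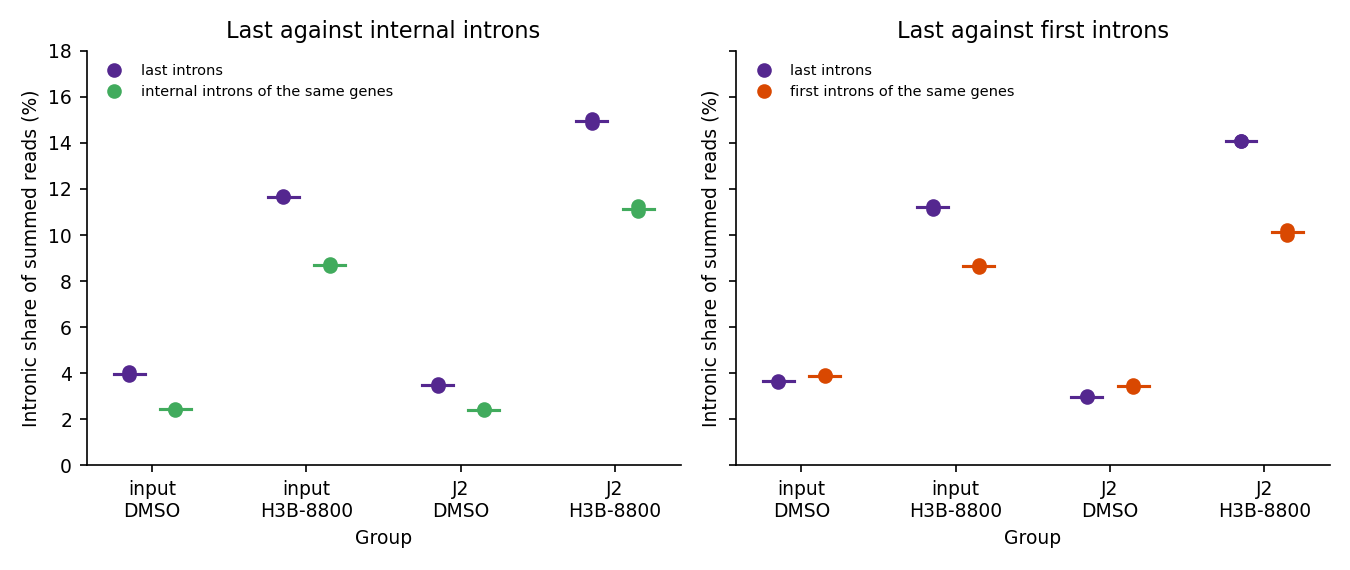
Intronic share of the summed reads in percent for each library (points; lines are group means) at last introns and at internal introns of 2475 genes (left) or first introns of 1819 genes (right), in the 4 groups on the x axis. With H3B-8800 the summed share of last introns was 11.1% to 15%, above that of the introns they are set against. The median share over genes was instead lower at last introns than at the pooled internal introns of each gene. Taken intron by intron, the median share with H3B-8800 was higher at last introns. With DMSO the summed share of first introns, 3.39% to 3.91%, was slightly above that of last introns of the same genes.

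J2 RNA and input RNA differed at few last introns. With DMSO, 12 had a higher ratio in J2 RNA and 22 a lower one, against 0.321% and 0.978% of all introns fitted. With H3B-8800, 23 were higher and 39 lower, against 0.945% and 1.47%. SFPQ, a splicing factor of paraspeckles, had 14.3% and 11% in input and 0.283% and 0.509% in J2 RNA with DMSO, a ratio of 0.0318 with a 95% counting interval of 0.00641 to 0.0963. Its groups lay far apart (adjusted p = 1.36e-06). PSMB7, a catalytic proteasome subunit, had 1.86% and 2.00% against 0.250% and 0.0816%, a log2 difference of -3.54 ± 0.61. TARDBP was higher in J2 RNA, with 94.6% and 95.9% against 71.2% and 68.6% in input with DMSO (log2 difference 3.11 ± 0.54, adjusted p = 4.98e-06). With H3B-8800, NT5C3B, a nucleotidase, had 27.2% and 22.5% in input and 61.2% and 57.9% in J2 RNA, a ratio of 2.42.

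Counts of calls between J2 and input RNA depended on single libraries. With DMSO the 22 lower calls became 10, 13, 11 and 11 without input replicates 1 and 2 and J2 replicates 1 and 2, and the 12 higher calls became 3 without input replicate 2 and 4 without J2 replicate 1. With H3B-8800 the 39 lower calls became 13, 12, 21 and 14 in the same order, and the 23 higher calls 8, 6 and 15 without input replicates 1 and 2 and J2 replicate 2. NPM1, a nucleolar chaperone, had 1.51% and 1.11% in input and 0% in both J2 libraries with H3B-8800, at least 8.66-fold lower. Its call was lost without input replicate 1 (adjusted p = 0.0708), J2 replicate 1 (0.0542) or J2 replicate 2 (0.236).

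The effect of H3B-8800 differed between the kinds of RNA at 26 last introns, 10 with a larger change in J2 RNA and 16 with a smaller one, against 0.291% and 0.152% of all introns fitted. In PABPC1, the cytoplasmic poly(A)-binding protein, the share went from 3.96% and 2.13% to 60% and 66.9% in input and from 10.7% and 16.1% to 36.8% and 23.6% in J2 RNA. Both changes separated the groups, and the log2 difference between them was -4.33 ± 0.59 (adjusted p = 1.27e-09). TARDBP went from 71.2% and 68.6% to 98.7% and 99.3% in input and from 94.6% and 95.9% to 98.3% and 95.5% in J2 RNA, where the groups overlapped (log2 difference -4.69 ± 0.68, adjusted p = 1.01e-08). TPM4, a tropomyosin, went from 3.78% and 1.90% to 21.0% and 30.5% in input, while J2 RNA had 14.0% and 9.44% against 12.1% and 3.73%. RPS7, a ribosomal protein, went from 1.21% and 1.72% to 21.9% and 18.2% in input and had 3.76% and 3.59% against 6.84% and 6.31% in J2 RNA. GTF2IRD1, a transcription factor of the TFII-I family, was of the other kind, from 41% and 41.3% to 95.2% and 92.8% in input and from 19.2% and 21.3% to 95.3% and 96.0% in J2 RNA (log2 difference 1.96 ± 0.53, adjusted p = 0.0482). That call was lost with a replicate block (0.0816) and without any 1 of 6 libraries (0.0772 to 0.752).

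**Figure D5:**
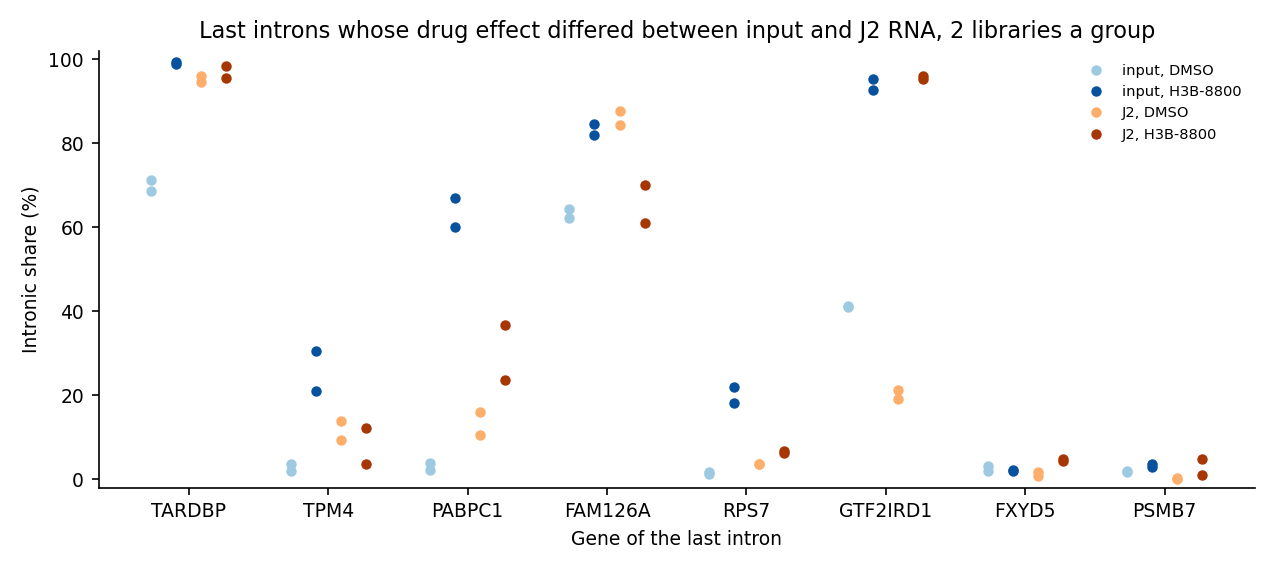
Intronic share in percent of 8 last introns whose change with H3B-8800 differed between input and J2 RNA, 1 point per library and 4 groups per gene. In PABPC1 the input libraries with H3B-8800 are at 60% and 66.9% and the J2 libraries at 36.8% and 23.6%, and in FAM126A the J2 libraries with H3B-8800 lie below those with DMSO.

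Of the introns called in both kinds of RNA, 6 were higher in input and lower in J2 RNA, and 2 the reverse. Opposite calls were not counted over all introns fitted, so these counts cannot be set against a general rate. Apart from FAM126A they were named after their values were seen. Each of these 8 introns lost at least 1 of its 2 drug-effect calls when 1 library was left out. The highest adjusted p was then, in input, 0.187 for FAM126A, 0.113 for MRPL42, 0.0691 for ATP1B3, 0.0714 for GNPNAT1, 0.272 for UBE2D2, 0.249 for SDHB and 0.484 for SQSTM1. In J2 RNA it was 0.176 for FAM126A, 0.133 for ATP1B3, 0.253 for GNPNAT1, 0.489 for PSMA5, 0.195 for SDHB and 0.212 for SQSTM1. With a replicate block the input call of SQSTM1 was lost as well (0.110). FAM126A, a subunit of a phosphatidylinositol kinase complex (chr7:22946164-22960255), went from 62.1% and 64.5% to 82.1% and 84.6% in input and from 84.4% and 87.7% to 70.1% and 61.1% in J2 RNA. MRPL42, a mitochondrial ribosomal protein (chr12:93487661-93501175), went from 42.9% and 33.7% to 72.9% and 86.2% in input and from 90.7% and 84.4% to 50.5% and 22.0% in J2 RNA. ATP1B3, a sodium pump subunit (chr3:141922064-141925530), went from 61.7% and 58.7% to 90.1% and 89.3% and from 54.1% and 52.6% to 21.8% and 18.3%. The groups of these introns did not overlap, and the log2 differences were -3.24 ± 0.82, -6.41 ± 1.12 and -4.71 ± 1.17. GNPNAT1, of hexosamine synthesis, UBE2D2, a ubiquitin-conjugating enzyme, and PSMA5, a proteasome subunit, completed the 6, with only 25, 32 and 20 reads in their lowest library. In all 6, spliced reads scaled by depth rose with H3B-8800 in J2 RNA, by log2 changes of 1.81 to 3.36. Their intronic reads in J2 RNA changed by -1.03 to 0.62. Of these intronic changes, only the fall of MRPL42 passed edgeR's quasi-likelihood test (adjusted p = 0.0306). The reverse pair was SDHB, of respiratory complex II, whose difference did not pass the test (adjusted p = 0.101), and SQSTM1, an autophagy receptor with a differing drug effect, which had 2.10% and 1.60% against 0.903% and 1.28% in input and 0.257% and 0.377% against 0.694% and 1.17% in J2 RNA. An exon of another gene on the other strand overlaps the SQSTM1 intron. Annotated exons of the same gene overlap the introns of FAM126A, MRPL42, ATP1B3 and UBE2D2. Reads from such exons were not told apart from intronic reads.

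Many of these differences rested on few libraries. Without 1 library the 10 larger changes numbered 2 to 9 and the 16 smaller ones 5 to 16. The 10 were 5, 5, 2 and 2 without input DMSO replicates 1 and 2 and input H3B-8800 replicates 1 and 2, and 5, 3 and 4 without J2 DMSO replicates 1 and 2 and J2 H3B-8800 replicate 2. The 16 were 10, 9, 9 and 7 without the same input libraries, 10 without J2 DMSO replicate 1 and 5 without J2 H3B-8800 replicate 2. The adjusted p of FAM126A was 0.0645 to 0.290 without any 1 of the 4 input libraries, J2 DMSO replicate 2 or J2 H3B-8800 replicate 2, that of RPS7 was 0.0737 and 0.0670 without replicate 1 of input DMSO and of input H3B-8800, and that of SQSTM1 was 0.104 to 0.596 without any 1 of 6 libraries and 0.0764 with a replicate block. PABPC1, TARDBP, TPM4 and MRPL42 passed without each of the 8 libraries in turn. Without 1 library the adjusted p reached 0.171 for ATP1B3, 0.126 for GNPNAT1, 0.814 for PSMA5 and 0.125 for UBE2D2.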

How the data were processed

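Polyadenylated RNA of 8 libraries was sequenced with a stranded kit, per the labels' protocols. HISAT2 2.0.4, with mm10 and hg38 as builds, is given by the submitters' processing notes; the counting program, its strand setting and the choice of introns are not given in the sources used here. Without a header, every deposited file holds 2 raw read counts and an RPKM for each of 142224 introns. The first deposited count was taken as reads inside the intron and the excess of the second as reads spliced across it, from the values alone. The depth of a library, 47000000 to 57000000 reads, was recovered from the RPKM that the authors deposited. The 18 rows that lack the last 2 values were left out after introns had been ranked.

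Annotation came from GENCODE 29 on GRCh38 and matched 2657 of the 2658 introns. All 30262 introns with a total of at least 20 in the 8 libraries were fitted together in edgeR 4.0.16 (quasi-likelihood test, R 4.3.3), with 2 counts per library, a term for each library and an intronic-against-spliced term for each group. A positive log2 change means a higher ratio of intronic to spliced reads. Benjamini-Hochberg adjustment covered all introns fitted, at a threshold of 0.05. The standard error (SE) is the log2 change divided by the root of the F statistic and was not estimated separately. Intronic and spliced reads were also fitted separately, scaled by depth, and last introns were set against first or internal introns of the same gene with 4 counts per library. limma 3.58.1 (pseudocounts 1 and 0.5), DESeq2 1.42.0 and the edgeR likelihood ratio test were alternatives, as were other scalings, filters, reference introns and the omission of each library. The edgeR quasi-likelihood fits of the share, of single kinds of read and of position were tried on simulated data. The limma, DESeq2 and likelihood ratio fits were not. Sequence tables were read with Python 3.11.15.

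The members and the 19 gene lists were chosen with earlier results of these data known. Named introns had at least 100 total reads in every library, no exon of another gene and groups that did not overlap. Up to 10 each way with the largest log2 change were taken for each drug effect and up to 5 for the other comparisons. Up to 5 introns under 1% in all libraries with the most reads and up to 3 of each list with the smallest p were added. For positions, up to 5 genes each way were taken. Introns whose sequence is printed and those called in opposite directions in the 2 kinds of RNA were chosen after their values were seen. Those called in opposite directions were not held to the minimum of 100 reads or to the absence of another gene's exon. Some introns that this rule names are not reported here.

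The replicates are biological duplicates per the labels. In the tests of the share, the spread behind the p-values was in effect pooled over introns, not that between the 2 duplicates of each intron. A call can therefore pass where duplicates differ widely. GLTSCR1, named after its values were seen, had 0% and 28.6% with DMSO and 2.86% and 0% with H3B-8800 in input. It was still called lower in edgeR's quasi-likelihood test (adjusted p = 0.0380). An exact two-sided permutation test of 2 against 2 libraries cannot give a p under 0.333. Reads carried no molecular identifiers, so intervals (95%, exact) and floors (3 reads over a group) cover counting error only. A fold change against a group with no intronic read is a lower bound from that floor.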

Additional observations from a re-analysis of the deposited data

Results flagged for a closer look

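The effect of H3B-8800 on the ratio of intronic to spliced reads differed between J2 and input RNA, by a test of the difference itself in edgeR, at 10 last introns with a larger change in J2 RNA and 16 with a smaller one. Values below are the log2 change in J2 RNA minus that in input. The smaller changes named were those of PSMA5 (-7.54), GNPNAT1 (-7.29), MRPL42 (-6.41), UBE2D2 (-5.80), ATP1B3 (-4.71), TARDBP (-4.69), TPM4 (-4.35), PABPC1 (-4.33), FAM126A (-3.24) and RPS7 (-3.18). The larger ones were those of GTF2IRD1 (1.96), FXYD5 (2.20), SQSTM1 (2.32) and PSMB7 (3.35). As given above, the calls of PSMA5, GNPNAT1, UBE2D2, ATP1B3, FAM126A and RPS7 were lost without some single libraries. PSMA5, GNPNAT1 and UBE2D2 held only 20, 25 and 32 reads in their lowest library. The FXYD5 call was lost with a replicate block (adjusted p = 0.0580) and without any 1 of 5 libraries (0.0823 to 0.446). That of SQSTM1 was lost with the block (0.0764) and without any 1 of 6 libraries (0.104 to 0.596), and that of GTF2IRD1 with the block (0.0816) and without any 1 of 6 (0.0772 to 0.752). No group held enough libraries for a test of single libraries far from the others.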

How the results depend on the processing

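Counts are given as higher and lower calls of last introns. Higher calls with H3B-8800 stayed within 1.5 times the reported counts under each alternative run except the limit to genes with at least 8 listed introns, which gave 518 and 6 in input, 604 and 5 in J2 RNA, 6 and 9 (J2 against input with DMSO), 5 and 13 (with H3B-8800) and 2 and 5 for the difference of drug effects. DESeq2 gave 7 lower in input, 7 higher with DMSO, 7 and 10 with H3B-8800 and 2 and 10 for the difference. The edgeR likelihood ratio test, chosen after seeing the data, gave 35 lower in input and 36 in J2 RNA, 35 and 99, 99 and 138, and 60 and 34. limma with a pseudocount of 0.5 gave 73 and 59 lower, 25 and 76, and 40 and 63. With a pseudocount of 1 it gave 88 and 82 lower, 45 and 119, 64 and 117, 48 and 53, 395 (input) and 484 (J2) smaller than at internal introns, and against first introns 294 and 126 in input and 456 and 141 in J2 RNA. Without introns under an exon of another gene 15 were higher in J2 RNA with H3B-8800 and 4 for the difference, and the medians were 0.197% (input, DMSO) and 3.14% (J2, H3B-8800). A total of at least 5 gave 9 lower in input and 4 higher for the difference. A total of at least 50 gave 9 lower in J2 RNA, 9 lower for the difference and medians of 0.402%, 3.16%, 0.214% and 3.04%. Summed reads gave 4.16%, 12.2%, 3.64% and 15.3%. With intronic reads scaled to 100 bases of intron, the median share was 0.0248% (input, DMSO), 0.355% (input, H3B-8800) and 0.337% (J2, H3B-8800).

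TMM scaling gave 491 and 171 for intronic reads in input, 559 and 176 in J2 RNA and 935 higher for spliced reads in input. Median-of-ratios scaling gave 471 and 187, 516 and 199, and 957. The internal intron nearest in length gave 62 and 61 in input and 63 and 60 in J2 RNA. Another run, chosen after seeing the data, kept only genes whose reference introns had a median length within 2 times that of the last intron. It gave 91 and 66, 99 and 86 against all internal introns pooled and 33 and 10, 43 and 12 against first introns.

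With the replicate number as a block, 4 last introns had a larger change in J2 RNA, and 254 values of named introns kept their side of the threshold while 7 lost it. The labels give a shared number only, and deviations of same-numbered libraries correlated between -0.124 and 0.0479 over 473 introns.

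Leaving out 1 library gave 723 to 763 higher and 5 to 9 lower in input and 832 to 887 and 6 to 12 in J2 RNA. Between J2 and input RNA it gave 3 to 10 and 10 to 13 with DMSO and 6 to 16 and 12 to 21 with H3B-8800, and for the difference of drug effects 2 to 9 and 5 to 16. Intronic reads gave 685 to 739 and 28 to 42 in input. Against internal introns the ranges were 120 to 155 and 82 to 91 in input and 143 to 207 and 110 to 165 in J2 RNA, and against first introns 106 to 133 and 20 to 31, and 133 to 185 and 26 to 34. The lone library of a group was then assumed to vary like the others. Some log2 changes that did not pass the test turned sign. Without 1 library they ran from -0.608 to 0.0833 for FXYD5 and -0.363 to 0.951 for HDGF in input, and in J2 RNA from -4.56 to 0.274 for CBFB, -2.96 to 0.159 for KLF4, -0.283 to 1.75 for KDM1A, -0.276 to 0.0748 for SLC7A5, -1.77 to 0.0608 for TPM4, -0.902 to 0.948 for RPLP0, -3.05 to 0.928 for PRPF38A and -0.173 to 3.74 for PGK1. limma with a pseudocount of 1 gave 0.20 for PRPF38A. The cause of these changes was not tested, apart from the smaller number of introns or libraries in some alternatives.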
